A study of Ailuropoda melanoleuca with 25 samples.

Results

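The heart and the liver of the same 5 giant pandas were compared, with 10 of the 25 libraries of the study, the 5 heart libraries and the 5 liver libraries, taken by tissue and paired by the number of the panda. The heart is a pump of striated muscle whose cardiomyocytes carry sarcomeres (the repeating units of thick and thin filaments that contract), a sarcoplasmic reticulum that releases and takes up calcium at each beat, and many mitochondria that burn fatty acids. The liver is built mainly of hepatocytes, which secrete most plasma proteins and lipoproteins into the blood, make glucose, bile acids, and urea, and break down amino acids, hormones, and foreign compounds. Expression of each gene was measured by RNA sequencing and given as FPKM. These are fragments per kilobase of gene length, scaled to the total of the library, so genes can be set side by side within a library. Between libraries the comparison also depends on the scale. TMM factors, another scaling used as an alternative below, ran from 0.424 in liver 3 to 1.34 in heart 1.

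Panda 1 was a female of 27 years with ovarian cancer as the cause of death, and panda 2 was a female of 9 years for which the label gives "ileac pssion". Pandas 3 and 4 (females) and panda 5 (a male) were 0.5 years old and had died of coronavirus infection. Samples were taken from newly dead animals and kept in liquid nitrogen. In this design the age of an animal cannot be told apart from why or in which year it died, and which part of the heart or of the liver was sampled is not given in the sources used here. In bulk tissue, fewer cells of a type and less RNA per cell cannot be told apart either. The reads counted on genes ranged from 15342624 to 17715152 in the hearts and from 15925953 to 21383371 in the livers. Values of 5 libraries are given below in the order of pandas 1 to 5. Statements of a highest or lowest library refer to the deposited FPKM, without TMM factors.

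The markers of each organ went with the labels. The summed FPKM of 10 cardiomyocyte markers was 85574, 77581, 90808, 75396 and 79234 in the hearts, against 3.55, 3.21, 13.5, 31.5 and 4.95 in the livers. That of 11 hepatocyte markers was 79216, 27944, 64507, 31131 and 73004 in the livers, against 119.7, 21.7, 27.9, 95.4 and 106 in the hearts. Livers 3 and 4 held most of the cardiomyocyte markers among the livers, and hearts 1, 4, and 5 most of the hepatocyte markers among the hearts. The part of these traces in the results below was not tested. Among the livers, that of panda 3 stood apart. It had 8725 genes above 1 FPKM, against 12092 to 12534 in the other 4 livers, its 20 most abundant genes took 44.5% of its summed FPKM, and its Pearson correlation with the other livers over the 14278 genes tested lay between 0.795 and 0.857. The livers of pandas 2 and 4 were the most alike, with a correlation of 0.990, and these animals were also the closest pair among the hearts (0.972) and the lungs (0.987), although their ages and causes of death differed by the labels. This did not hold in the other tissues. In the spleen pandas 1 and 5 were closest (0.979, against 0.975 for pandas 2 and 4), and in the kidney pandas 3 and 5 (0.971, against 0.901). The reads of pandas 2 and 4 differed beyond counting error (chi-square per gene 30.9 in the liver, 48.2 in the heart, and 19.0 in the lung, the lowest of the pairs in each of these tissues), so they were not copies of 1 library. Whether these libraries came from separate animals was not tested, and the number of 5 pandas, the pairing, and the split into young and older animals rest on the labels. Without panda 2, 1284 genes were called higher and 979 lower in the heart by the criteria given next, and without panda 4, 1279 and 1044.

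Tests covered 14278 genes whose mean exceeded 1 FPKM in at least one of the organs, of which 2262 (15.8%) were differentially expressed at an adjusted p below 0.05 (limma with the panda as a block, Benjamini-Hochberg over all genes tested) and a difference beyond 2 in log2(FPKM + 1). Of these, 1206 (8.45% of the genes tested) were higher in the heart and 1056 (7.40%) were lower in the heart, that is, higher in the liver. The difference had the same sign in all 5 pandas for 2199 of the 2262 genes, against 52.9% of all genes tested, and for 2041 of them the 5 hearts did not overlap the 5 livers, against 33.2% of all genes tested. The median log2 difference (heart minus liver) over all genes tested was 0.14. Differences on this scale understate the change of low genes, and for 45 genes called higher in the heart every liver was listed at 0, and for 70 called lower every heart, so that their size rests on the pseudocount of 1. When panda 3 was left out, 1068 genes were higher and 1233 lower in the heart, and 2048 of the 2262 calls were kept. Dividing the libraries by TMM factors moved the median of all genes to -0.13 and turned the majority to the liver side, with 1018 genes higher and 1247 lower. Names were at hand for 801 of the genes called, because names came from the list of genes the study had itself found specific to one of its 5 tissues on these libraries. Of the 1164 genes tested with a name, 68.8% were called (36.3% higher and 32.6% lower in the heart), against 11.1% of the 13114 without one, so the counts of list members below are no independent evidence of their direction.

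The 10 named genes with the largest difference toward the heart coded for parts of the sarcomere and for proteins of muscle energy supply. Myosin light chain 2 (MYL2), the regulatory light chain of ventricular myosin, stood at 34419, 27904, 32042, 23304 and 26141 FPKM in the hearts and at 0, 0.0821, 4.55, 9.68 and 0.620 FPKM in the livers (log2 difference 13.46 ± 0.54 SE, adjusted p = 5.34e-07). It was the most abundant named gene of every heart but that of panda 2, where creatine kinase M ranked above it. Troponin C (TNNC1), the calcium sensor of the thin filament, reached 18811 to 26039.5 FPKM in the hearts against 0 to 8.40 in the livers. Creatine kinase M (CKM), which regenerates ATP from phosphocreatine, stood at 16327, 28177, 23233, 22690.5 and 14822 FPKM in the hearts. Its livers held 0.0468, 0.216, 3.43, 7.94 and 0.286 FPKM (log2 difference 13.12 ± 0.44 SE, adjusted p = 2.26e-07). The other 7 were skeletal alpha-actin (ACTA1), myoglobin (MB), troponin I (TNNI3), desmin (DES), myosin light chain 3 (MYL3), troponin T (TNNT2), and the muscle LIM protein CSRP3, with log2 differences from 11.41 to 12.63. Liver 4 was the highest liver for each of these 10 genes, and no liver exceeded 9.68 FPKM.

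Toward the liver, the 10 largest differences were those of secreted plasma proteins and 1 detoxifying enzyme. Alpha-1-antitrypsin (SERPINA1), the main inhibitor of neutrophil elastase in blood, stood at 22712, 10328, 49208, 12066 and 18348 FPKM in the livers and at 2.35, 0.467, 5.999, 4.45 and 4.33 in the hearts (log2 difference -12.23 ± 0.30 SE, adjusted p = 6.63e-08). Here the liver of panda 3 was the highest. Fetuin-A (AHSG), a carrier that keeps calcium phosphate in solution, was 15048, 3410.0, 928, 3403 and 12099 FPKM in the livers, with panda 3 the lowest, and at most 1.21 FPKM in a heart. Apolipoproteins C2 (APOC2), H (APOH), and C3 (APOC3), the fibrinogen chains FGG and FGB, the iron hormone hepcidin (HAMP), a glutathione S-transferase (LOC100471068), and kallistatin (SERPINA4) followed, with log2 differences from -10.56 to -11.68. In the hearts the 9 genes other than HAMP did not exceed the level of SERPINA1 in heart 3, and HAMP stood at 0.707, 0.262, 4.87, 23 and 19.7 FPKM.

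**Figure D1:**
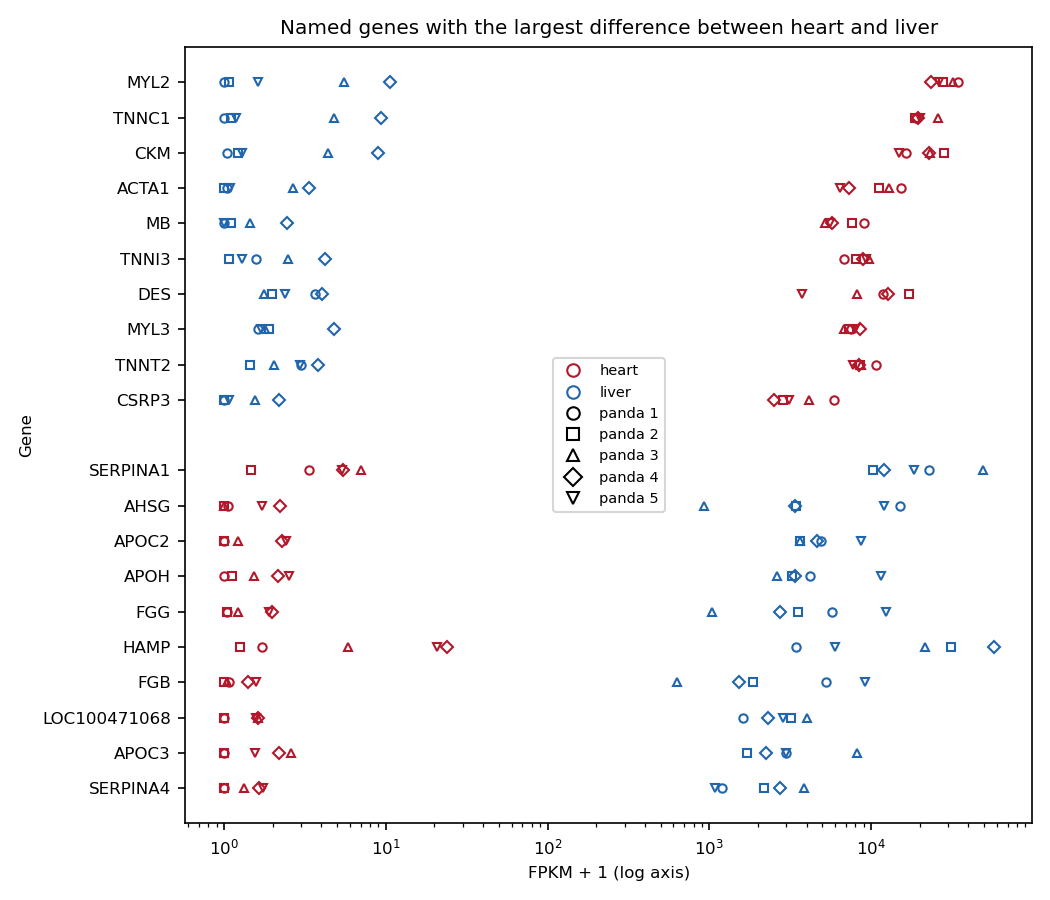
FPKM + 1 (log axis) in each library for the 10 named genes with the largest log2 difference in each direction, hearts in red and livers in blue, with 1 symbol for each panda. Hearts and livers lie far apart for all 20 genes, and livers 3 and 4 hold up to 9.68 FPKM of MYL2 while hearts 4 and 5 hold 23.0 and 19.7 FPKM of HAMP.

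In the 11 lists of heart genes, 120 of the 129 members tested were higher in the heart, 2 were lower, and 7 did not pass the threshold. All hearts were above all livers, or all below, for 124 of them, against 33.2% of all genes tested (20.8% with all hearts above). The mean was higher in the heart than in any of the other 4 tissues for 125 members. Among all 1206 genes higher in the heart, the heart led for 738, or for 1000 after division by TMM factors. Members had names only because they were already on a list of tissue-specific genes drawn from the same libraries. Their count is therefore no independent evidence that the heart leads. In the 11 lists of liver genes, 155 of 165 members were higher in the liver, 10 did not pass, and none was higher in the heart. All hearts were below all livers for 149 of these members, against 12.4% of all genes tested. Without panda 3, 118 of 128 heart members and 157 of 165 liver members were called in the same way.

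**Figure D2:**
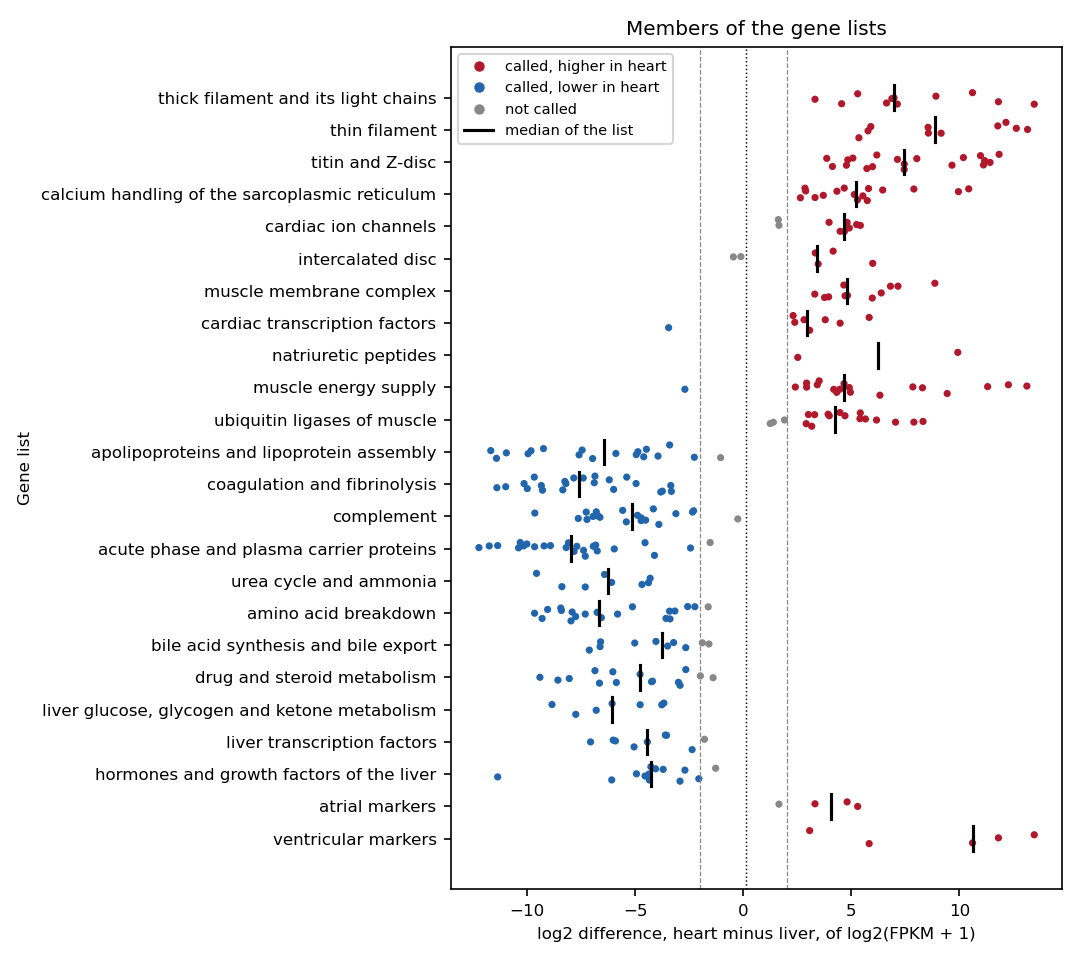
Log2 difference, heart minus liver, of log2(FPKM + 1) for each member of 24 gene lists, coloured by its call, with a bar at the median of each list, dashed lines at 2 and -2, and a dotted line at the median of all genes tested (0.14). The heart lists lie to the right except for GATA5, CKB, DSG2, and DSC2, and the liver lists lie to the left throughout.

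All 11 tested members of the thick filament list were higher in the heart, with a median log2 difference of 6.97, as were all 10 of the thin filament list (median 8.86). The slow myosin heavy chain MYH7, the motor protein of the adult ventricle, stood at 2120.2, 2387, 1492, 2073 and 1225 FPKM in the hearts and at most 0.717 FPKM in a liver (log2 difference 10.60 ± 0.26 SE, adjusted p = 6.63e-08). Myosin-binding protein C (MYBPC3), which tunes the speed of contraction, ranged from 408 to 880.2 FPKM in the hearts and from 0.0366 to 0.278 in the livers. Troponin T (TNNT2), the tropomyosin-binding part of the switch, was 7711 to 10685 FPKM in the hearts. On the thin filament, tropomyosin (TPM1), which blocks the myosin sites on actin until calcium is bound, was also read in the livers, at 284, 156, 336, 168 and 320.3 FPKM against 12658, 17188, 11839, 14257 and 10773 in the hearts (log2 difference 5.77 ± 0.29 SE). Of the sarcomeric actins, ACTA1 stood at 15324, 11236, 12841, 7254 and 6455 FPKM and the cardiac form ACTC1 at 1264, 435, 360.2, 244 and 1922 FPKM in the hearts, so that ACTA1 was above ACTC1 in each of them and ACTC1 was highest where ACTA1 was lowest, in panda 5.

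Titin and the Z-disc, the plate that anchors thin filaments and links neighbouring sarcomeres, gave 19 of 19 members higher in the heart (median 7.44, largest adjusted p 3.47e-05). Desmin (DES), the intermediate filament that ties the Z-discs together, stood at 11800.1, 17181, 8201, 12808 and 3726 FPKM in the hearts, with that of panda 5 the lowest, and at 2.65, 0.979, 0.760, 3.06 and 1.39 FPKM in the livers (log2 difference 11.83 ± 0.34 SE). Alpha-B crystallin (CRYAB), a chaperone of desmin, was 3389.7 to 6771 FPKM in the hearts and 2.44 to 6.73 in the livers. Telethonin (TCAP), which caps titin at the Z-disc, ranged from 2327 to 6313 FPKM in the hearts, and calsarcin-1 (MYOZ2), which binds calcineurin there, from 3116 to 5609 FPKM. Titin (TTN) itself, the giant spring of the sarcomere, stood at 69.3, 86.4, 62.4, 66.4 and 39.1 FPKM in the hearts, and the livers were at 0.0204 FPKM or below. Filamin C (FLNC), an actin crosslinker, was high in hearts 1 and 2 and low in hearts 3 and 5, at 748, 1016, 88.3, 444 and 125 FPKM, and did not overlap the livers (0.0658 to 2.93 FPKM).

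Of the calcium handling list, 16 of 16 members were higher in the heart (median 5.21). Phospholamban (PLN), the brake on the calcium pump, stood at 2399, 2277, 4536, 2722 and 4009.7 FPKM in the hearts and at 0.344, 1.59, 1.38, 2.01 and 1.20 in the livers (log2 difference 10.43 ± 0.27 SE, adjusted p = 6.64e-08). The calcium pump ATP2A2 that it regulates was also read in the livers, at 36.7, 26.3, 1.15, 25 and 22 FPKM with panda 3 the lowest, against 277, 522, 265, 474 and 237 in the hearts (log2 difference 4.33 ± 0.53 SE). S100A1, a calcium-binding activator of the pump and of the release channel, was 855 to 1837 FPKM in the hearts. Cardiac calsequestrin (CASQ2), which stores calcium in the reticulum, was 182 to 303 FPKM in the hearts, and the release channel RYR2 was 27.5 to 57.2 FPKM, while neither exceeded 0.0847 FPKM in a liver.

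Among 9 ion channel genes, 7 were higher in the heart and 2 were under the threshold of 2. KCNIP2, a subunit of the transient outward potassium current, varied from heart to heart at 28.9, 201, 144, 284 and 97.3 FPKM, and the livers held 0.762, 4.69, 0.255, 7.06 and 0.719 (log2 difference 5.41 ± 0.38 SE). The repolarising channel KCNH2 ranged from 22.7 to 80.2 FPKM in the hearts, the ATP-sensitive channel KCNJ11 from 29.3 to 64.6, and the inward rectifier KCNJ2 from 10.7 to 55.3. The atrial channel subunit KCNJ3 had a log2 difference of 1.65 ± 0.31 SE and overlapped between the organs, and the sulphonylurea receptor ABCC8 had one of 1.62 ± 0.19 SE without overlap, at levels of at most 5.93 FPKM in any heart. Both passed the threshold with a pseudocount of 0.1 in place of 1, at 3.28 and 4.37, since the smaller pseudocount gives low levels more weight.

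Cells of the heart are coupled at intercalated discs, and 4 of the 6 disc genes tested were higher in the heart. Connexin 43 (GJA1), the main gap junction protein of the ventricle, stood at 97.8, 153, 106, 213 and 108 FPKM in the hearts and at 0.653, 1.42, 0.187, 1.86 and 1.71 in the livers (log2 difference 5.99 ± 0.26 SE, adjusted p = 8.92e-07). Desmoplakin (DSP) ranged from 55.5 to 188 FPKM in the hearts and from 3.39 to 24 in the livers, plakophilin 2 (PKP2) from 83.4 to 116 and from 3.05 to 12.9, and N-cadherin (CDH2) from 39.8 to 88.6 and from 0.266 to 4.46. Their log2 differences were 3.33, 3.46, and 4.15. The desmosomal cadherins DSG2 and DSC2 were not called. DSC2 stood at 15.4, 16, 12.9, 10.9 and 10.8 FPKM in the hearts and at 16.1, 17.6, 8.35, 15.3 and 15.6 in the livers (log2 difference -0.11 ± 0.26 SE, adjusted p = 0.753). DSG2 was 5.31, 6.54, 4.55, 5.32 and 3.88 FPKM in the hearts and 12.3, 9.94, 1.41, 10.1 and 9.26 in the livers, above every heart in 4 of the 5 livers (log2 difference -0.46 ± 0.38 SE, adjusted p = 0.343). Desmosomes also join epithelial cells, and the lung had the highest mean of DSG2 among the 5 tissues.

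The membrane complex that links the cytoskeleton of muscle to its surroundings was higher in the heart in all 11 members tested (median 4.82). Caveolin 3 (CAV3), the muscle form of the caveolar coat, stood at 726, 446, 357, 444 and 419 FPKM in the hearts and at 0 in all 5 livers. CAVIN4, its partner in caveolae, was 89.9, 261, 129.9, 241 and 77.2 FPKM in the hearts, and POPDC2, a cyclic AMP-binding protein of the conduction system, was 102 to 329 FPKM.

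Of 8 members tested of the list of heart transcription factors, 7 were higher in the heart (median 2.94). The list also holds SMYD1, a methyltransferase of muscle, which was among those higher in the heart. HAND2, which is needed for growth of the right ventricle, stood at 143, 281, 205, 276 and 84.8 FPKM in the hearts and at 12.9, 10.9, 0.432, 14.1 and 9.02 FPKM in the livers, with panda 3 far below the other livers (log2 difference 4.48 ± 0.54 SE). HEY2, a repressor that keeps the compact ventricular wall in its state, was 38, 89.6, 78.3, 146 and 42.4 FPKM in the hearts and at most 0.399 FPKM in a liver. GATA6 was 80.9, 102, 64, 65.2 and 34.9 FPKM in the hearts and 13.8, 31, 3.86, 28.7 and 5.47 in the livers (log2 difference 2.30 ± 0.37 SE), and without panda 3 its difference of 1.94 fell under the threshold of 2. TBX20 ranged from 11.7 to 21.5 FPKM in the hearts. GATA5 went the other way. This factor of the early endoderm and endocardium was 0.0505, 0.0561, 0.104, 0.154 and 0.0972 FPKM in the hearts and 53.5, 10.8, 3.196, 6.81 and 10.7 FPKM in the livers (log2 difference -3.45 ± 0.49 SE, adjusted p = 0.000603), and its mean was highest in the spleen.

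Brain natriuretic peptide (NPPB), a hormone that stretched muscle of the heart releases and 1 of the 2 natriuretic genes tested, varied widely between animals. It stood at 3391, 2721, 1465, 1104 and 93 FPKM in the hearts and at no more than 0.487 FPKM in a liver (log2 difference 9.92 ± 0.67 SE, adjusted p = 1.00e-05). The heart of panda 5 was far below the others, and still far above every liver. CORIN, the protease that activates the atrial peptide, was 4.16, 7.66, 3.01, 9.43 and 6.75 FPKM in the hearts.

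Atrial and ventricular markers were compared because the piece of heart taken is not stated. The ventricular light chains MYL2 and MYL3 were high in every heart, and MYL3 ranged only from 6836 to 8506 FPKM. The atrial light chain MYL7 stood at 47.9, 454, 104, 3.52 and 25.7 FPKM in the hearts (log2 difference 5.29 ± 0.83 SE, adjusted p = 0.00108). The other atrial chain, MYL4, was 9.57, 126, 77.6, 0.103 and 0.291 FPKM in the hearts and 0, 0.0850, 0, 0.216 and 0.161 FPKM in the livers, so heart 4 overlapped the livers and heart 5 lay just above them (log2 difference 3.32 ± 1.04 SE, adjusted p = 0.0285). Its call was lost without panda 1, 2, or 3. Hearts 2 and 3 were the highest for both atrial chains and heart 4 the lowest. KCNJ5, a subunit of the acetylcholine-activated channel of the atrium, was 31.2, 24.8, 28.8, 20.3 and 31.1 FPKM in the hearts and 0 to 0 FPKM in the livers (4.80 ± 0.25 SE).

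**Figure D3:**
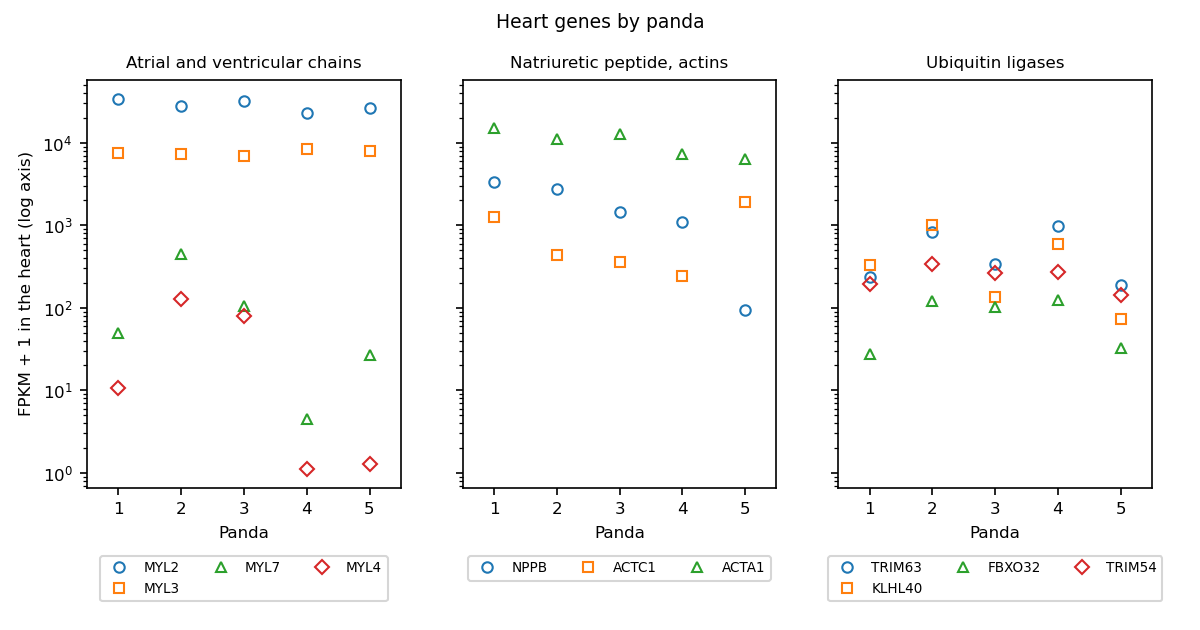
FPKM + 1 (log axis) in the heart of each panda for the ventricular (MYL2, MYL3) and atrial (MYL7, MYL4) light chains, for NPPB and the 2 sarcomeric actins, and for 4 ubiquitin ligases. The ventricular chains are level across the pandas, whereas MYL7 runs from 3.52 FPKM in panda 4 to 454 FPKM in panda 2 and NPPB from 93.0 FPKM in panda 5 to 3391 FPKM in panda 1.

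Of the energy supply list, 18 of 19 members were higher in the heart (median 4.66). Myoglobin (MB), the oxygen store of muscle, stood at 8998, 7573, 5181, 5743 and 5597 FPKM in the hearts and at 0, 0.105, 0.457, 1.47 and 0 in the livers (log2 difference 12.26 ± 0.31 SE, adjusted p = 6.64e-08). Some members were also abundant in the liver. The respiratory chain subunit COX7A1 was 3699, 3303, 4814, 3359 and 4143 FPKM in the hearts and 201, 305, 872, 259.9 and 406 in the livers, and lactate dehydrogenase B (LDHB), which favours the use of lactate, was 3277, 3725, 4851, 3386 and 3449.9 against 293, 568, 703, 414 and 554 FPKM. Their log2 differences were 3.42 ± 0.26 SE and 2.93 ± 0.20 SE, with no overlap. The adenine nucleotide carrier SLC25A4 had a difference of 4.32, and CPT1B, the step that admits fatty acids to the mitochondria of muscle, one of 6.32 with 257, 225, 189, 158 and 219 FPKM in the hearts. The brain form of creatine kinase, CKB, was the exception. It was lower in the heart, at 4.39, 1.26, 1.33, 2.83 and 2.88 FPKM against 73.6, 15.5, 4.30, 14.7 and 47.4 FPKM in the livers (log2 difference -2.70 ± 0.41 SE, adjusted p = 0.000948), and liver 3 overlapped the hearts.

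Ubiquitin ligases and adaptors of muscle, which mark proteins of the sarcomere for breakdown or steady them, were higher in the heart in 15 of 18 cases (median 4.22). TRIM63, which acts on thick filament proteins in wasting muscle, stood at 235, 828, 337, 969 and 187 FPKM in the hearts and at most 0.468 FPKM in a liver (log2 difference 8.31 ± 0.39 SE). KLHL40, a stabiliser of thin filament proteins, was 331, 1011, 135, 589 and 72 FPKM in the hearts, and hearts 2 and 4 were highest for both genes. FBXO32, the other ligase of muscle wasting, was 26.5, 119, 99.9, 124 and 31.5 FPKM in the hearts and 1.15, 26.2, 5.54, 26.3 and 1.23 FPKM in the livers, where those of pandas 2 and 4 were again the highest (log2 difference 3.17 ± 0.36 SE). TRIM54 was 143 to 337 FPKM in the hearts, and KLHL41 was 33.3 to 158 FPKM. ASB14, KLHL30, and ASB12 were at 0 in all livers and no higher than 5.19 FPKM in a heart, with differences of 1.90, 1.39, and 1.25 that did not reach 2.

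Muscle and liver use different genes for the same step in several pathways, and 20 such enzymes and factors were tested. Of these, 16 were higher in the heart and 4 were lower. The muscle forms phosphoglycerate mutase 2 (PGAM2), enolase 3 (ENO3), phosphofructokinase M (PFKM), glycogen phosphorylase M (PYGM), and the cytochrome oxidase subunit COX6A2 had log2 differences of 9.43, 4.90, 4.47, 4.95, and 11.30. COX6A2 stood at 2347, 2352, 5781, 3494 and 3487 FPKM in the hearts and at no more than 1.07 FPKM in a liver, whereas ENO3 was read in the livers too, at 72.4, 25.4, 51.4, 27.7 and 56.5 FPKM. The elongation factor EEF1A2 and the ribosomal protein RPL3L, the striated muscle forms of parts of the translation machinery, were 640.0 to 1232 and 160.3 to 242 FPKM in the hearts and below 1 FPKM in each liver. The glucose transporter SLC2A4, which insulin moves to the surface of muscle, was 78.2, 60.9, 51.2, 17.2 and 31.3 FPKM in the hearts. Forms that carry neither the muscle nor the liver in their name were also higher in the heart, such as phosphorylase B (PYGB, 4.60 ± 0.34 SE) and phosphofructokinase P (PFKP, 3.28 ± 0.30 SE). The 4 lower in the heart were the liver glycogen synthase GYS2, the liver glutaminase GLS2, the mitochondrial PEP carboxykinase PCK2, and CKB. GYS2 was 12.9 to 34.8 FPKM in the livers and at most 0.0615 FPKM in a heart, and PCK2 was 335, 134, 70.4, 119 and 144 FPKM in the livers against 0.779 to 1.77 FPKM in the hearts.

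Apolipoproteins and the proteins that load them with lipid were higher in the liver in 17 of 18 cases (median -6.43). Apolipoprotein C1 (APOC1) stood at 16479, 10958, 17518, 14173 and 20534 FPKM in the livers and at 22.6, 9.52, 8.86, 28.2 and 20.3 in the hearts (log2 difference -9.82 ± 0.28 SE, adjusted p = 1.06e-07). APOE, the ligand that returns remnant particles to the liver, was 16975, 16819.9, 2128, 13319.7 and 10226 FPKM in the livers with panda 3 the lowest, and 109.5, 21.2, 27.6, 82.2 and 51.2 FPKM in the hearts. APOA1, the main protein of high-density lipoprotein, was 20539, 5274, 2893, 6683 and 18585 FPKM in the livers, and the hearts held 111, 16.8, 14.4, 79.6 and 93. APOB, the backbone of the very low-density particle, stood at 395, 135, 11.1, 137 and 409 FPKM and its loading protein MTTP at 74.1, 35.8, 3.28, 27.7 and 93.5 FPKM in the livers. The lipase inhibitor ANGPTL8 was 0.653 FPKM in liver 3, within the range of the hearts (0.242 to 1.42), and 43.0 FPKM or more in the other livers (log2 difference -4.48 ± 0.82 SE). PNPLA3, a lipid droplet enzyme, was not called (-1.05 ± 0.27 SE).

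Each of the 22 coagulation and fibrinolysis genes was higher in the liver, with a median log2 difference of -7.62 and a largest adjusted p of 0.000748. The fibrinogen chains, which form the clot, were highest in pandas 1 and 5 and lowest in panda 3. FGG stood at 5762, 3549, 1042, 2747 and 12293 FPKM, FGB at 5292, 1850.1, 632, 1518 and 9193 FPKM, and FGA at 3606, 1296, 146, 1109 and 2975 FPKM in the livers. FGG and FGB peaked in panda 5 and FGA in panda 1. In the hearts no chain exceeded 0.981 FPKM. Kininogen (KNG1), the source of bradykinin, was 1817, 2201, 486, 2062 and 1671 FPKM in the livers, and prothrombin (F2), the precursor of thrombin, was 1429, 761, 44.3, 688 and 891 FPKM (log2 difference -8.25 ± 0.71 SE). Protein S (PROS1), an anticoagulant that endothelium also makes, was the member read most in the heart, at 19.6, 15.3, 11.4, 41.3 and 25.2 FPKM against 231, 242, 79.6, 266 and 388 FPKM in the livers (log2 difference -3.33 ± 0.28 SE).

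Complement gave 19 of 20 members higher in the liver (median -5.15). Clusterin (CLU), an inhibitor of the final lytic complex, was abundant in both organs, at 854, 363, 339.6, 515 and 458 FPKM in the hearts and 5907, 3495, 254, 3567 and 3856 FPKM in the livers (log2 difference -2.30 ± 0.50 SE, adjusted p = 0.0058). Liver 3 overlapped the hearts, and in pandas 3 to 5 alone the difference of -1.82 was under the threshold. The central component C3 stood at 4347, 1302, 24.8, 1109 and 2040.2 FPKM in the livers and at 57.6, 9.76, 10.5, 60.3 and 56.6 in the hearts, with liver 3 within the range of the hearts (log2 difference -4.73 ± 0.72 SE). The C1 inhibitor SERPING1 was 60.00 to 300.4 FPKM in the hearts and 617 to 1738 FPKM in the livers, while C9, which forms the pore, was 1458, 898, 323, 617 and 1743 FPKM in the livers and at most 0.217 FPKM in a heart. The protease C1S, at 41.7, 9.31, 10.1, 39.4 and 53.6 FPKM in the hearts and 1747, 1091, 38.7, 941 and 1931 FPKM in the livers, overlapped through liver 3 as well (-4.72 ± 0.59 SE), and so did COLEC11. MASP1, the protease that starts the lectin pathway, was not called. It stood at 16.8, 12.7, 4.58, 19.8 and 17.5 FPKM in the hearts and 53.7, 21.9, 0.651, 20.4 and 27.6 FPKM in the livers (log2 difference -0.25 ± 0.45 SE, adjusted p = 0.667).

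Acute phase and carrier proteins were higher in the liver in 23 of 24 cases (median -7.96). Hepcidin (HAMP), the hormone that blocks iron export, stood at 3443, 31403, 21633, 57134 and 5953 FPKM in the livers (log2 difference -11.36 ± 0.73 SE, adjusted p = 7.50e-06). Retinol-binding protein (RBP4) was 8382, 8494, 1741, 9741 and 6041 FPKM in the livers and 1.40, 2.34, 1.82, 12 and 6.31 in the hearts. C-reactive protein (CRP), a classical marker of inflammation, was 8202, 1547, 82.6, 1474 and 7659 FPKM and haemopexin (HPX), which binds free haem, 4379, 559, 57.3, 557 and 4047 FPKM in the livers, both highest in pandas 1 and 5 and lowest in panda 3. LEAP2, an antagonist of the ghrelin receptor, was also read in the hearts, at 195, 38, 97.8, 38.5 and 154 FPKM against 681, 434, 129.5, 364 and 1553 FPKM in the livers, and overlapped through liver 3 (log2 difference -2.44 ± 0.45 SE). SERPINA7, which carries thyroxine, was at 0 in every heart and at 5.07, 0, 0.867, 0 and 17 FPKM in the livers, and was not called (log2 difference -1.53 ± 0.58 SE, adjusted p = 0.058).

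The urea cycle disposes of ammonia, and all 8 members tested were higher in the liver (median -6.26). Arginase 1 (ARG1), the step that splits off urea, stood at 579, 3298, 7418, 2755 and 799 FPKM in the livers, with panda 3 the highest and pandas 1 and 5 the lowest, and at 0.780 to 2.95 FPKM in the hearts (log2 difference -9.57 ± 0.45 SE, adjusted p = 1.24e-06). Carbamoyl phosphate synthetase (CPS1), the entry step, varied less, at 572, 488, 205, 447 and 289 FPKM. Ornithine transcarbamylase (OTC) was 197, 107, 179.9, 83.2 and 326 FPKM and glutaminase 2 (GLS2), which feeds ammonia to the cycle, 56.6, 194, 73.9, 209 and 37 FPKM in the livers.

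Amino acid breakdown gave 19 of 20 members higher in the liver (median -6.66). Tyrosine aminotransferase (TAT), an enzyme that glucocorticoids and fasting induce, stood at 255, 5719, 428, 5367 and 286 FPKM in the livers and at 0.0428, 0.0475, 0.133, 2.31 and 1.32 in the hearts (log2 difference -9.31 ± 0.71 SE, adjusted p = 1.96e-05). Betaine-homocysteine methyltransferase (BHMT) was 774, 2414, 495, 1760.0 and 623 FPKM and methionine adenosyltransferase (MAT1A) was 234, 2313, 154, 1844 and 87.4 FPKM in the livers. In all 3 genes the livers of pandas 2 and 4 were the highest. Histidase (HAL) at 96, 1371, 45.1, 1614 and 64.8 FPKM and tryptophan dioxygenase (TDO2) at 90.4, 1384, 439.9, 1292 and 159 FPKM were also highest in pandas 2 and 4. Serine dehydratase (SDS), which makes pyruvate from serine, stood at 2.17, 335, 294, 284 and 0.945 FPKM, high in 3 livers and near 1 to 2 FPKM in pandas 1 and 5 (log2 difference -5.13 ± 1.19 SE). UROC1 overlapped through liver 3 (-2.57 ± 0.67 SE). HOGA1 had a difference of -1.62 ± 0.39 SE, under the threshold, and its mean was highest in the kidney.

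Of the bile acid list, 8 of 10 members were higher in the liver (median -3.77). The reductase AKR1D1, which gives bile acids their bent ring, stood at 91.9, 120.1, 408, 94.7 and 186 FPKM, the transporter subunit SLC51B at 194, 100.4, 49.2, 109 and 277 FPKM, and the side-chain oxidase ACOX2 at 107, 198, 42.7, 209 and 69.1 FPKM in the livers. The bile salt export pump ABCB11 was 8.43, 8.25, 0.108, 9.98 and 8.73 FPKM, and its log2 difference of -2.66 ± 0.48 SE passed the threshold. HSD3B7 was also read in the hearts, at 3.05 to 10.8 FPKM against 25.1 to 179 FPKM in the livers. CYP8B1 (-1.90 ± 0.45 SE) and ABCG5 (-1.59 ± 0.33 SE) did not reach 2, although all livers were above all hearts. CYP8B1, which sets the ratio of cholic acid to the other bile acids, was 13.4, 0.789, 0.893, 1.33 and 5.81 FPKM in the livers.

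Drug and steroid metabolism gave 13 of 15 members higher in the liver (median -4.77). Nicotinamide N-methyltransferase (NNMT) was read in both organs, at 131, 69, 42.2, 904 and 168 FPKM in the hearts, with panda 4 the highest, and 1356, 9529.8, 6708, 6826 and 1582 FPKM in the livers (log2 difference -4.77 ± 0.70 SE). CYP2E1, which oxidises ethanol and ketones, stood at 993, 893, 323, 1414 and 895 FPKM in the livers and at most 0.683 FPKM in a heart. The bilirubin-conjugating UGT1A1 was 591, 453, 39.7, 355 and 422 FPKM and HSD17B14 1116, 839, 909, 633 and 683 FPKM in the livers. CYP1A2 and CYP1A1, both targets of the aryl hydrocarbon receptor, were 681, 107, 11, 134 and 538 FPKM and 101, 4.26, 0.504, 4.12 and 63.5 FPKM, highest in pandas 1 and 5. The sulphotransferase SULT1C3 was at 23.3, 0, 31.6, 0 and 40.4 FPKM in the livers and at 0 in every heart (adjusted p = 0.0211). CES3 (-1.99) and GSTO2 (-1.40) were under the threshold.

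Genes of glucose, glycogen, and ketone metabolism were higher in the liver in 7 of 7 cases (median -6.07). Fructose bisphosphatase (FBP1), a control point of glucose production, stood at 516, 680.2, 1354, 804 and 478 FPKM in the livers and 0.117 to 1.43 FPKM in the hearts (log2 difference -8.85 ± 0.30 SE, adjusted p = 2.26e-07). The acetyl-CoA hydrolase ACOT12 was 75.1, 99.5, 309, 85 and 105 FPKM, with liver 3 the highest.

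Among transcription factors of the liver, 8 of 9 were higher there (median -4.44). The bile acid receptor NR1H4 stood at 31.1, 24.5, 52, 30.1 and 66.6 FPKM and its target, the co-repressor NR0B2, at 306, 521, 81.7, 440.5 and 164 FPKM in the livers. ATF5 was 549.6, 69.4, 239, 71 and 434 FPKM, and FOXA3 was 123, 51.6, 62.1, 36.1 and 51.2 FPKM in the livers and 0 in all 5 hearts (log2 difference -5.91 ± 0.31 SE). ONECUT1, at 11.1, 1.39, 0.120, 1.40 and 5.48 FPKM, was not called (-1.79 ± 0.45 SE), and passed without panda 3 at -2.20.

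Hormones and growth factors of the liver gave 12 of 13 members higher there (median -4.28) and varied widely between livers. FGF21, a fasting hormone, stood at 251, 1.56, 0, 1.09 and 283 FPKM in the livers and at 0 in the hearts (log2 difference -3.71 ± 1.25 SE, adjusted p = 0.0383). Its call rested on the livers of pandas 1 and 5 and was lost without either of them (-2.64 and -2.60), and without the replicate block its adjusted p no longer passed. FGF19, a hormone that bile acids induce, was at 0.0864, 6.06, 0, 10.01 and 0 FPKM in the livers and was not called (-1.28 ± 0.55 SE, adjusted p = 0.0865). Inhibin beta E (INHBE) was 205, 14.7, 0.306, 10.6 and 80.4 FPKM, angiogenin (ANG) 192, 83, 86.2, 91 and 367 FPKM, and hepatocyte growth factor activator (HGFAC) 265, 89.97, 8.0, 68.9 and 125 FPKM in the livers. GDF2, a ligand of vessel walls, stood at 24.4, 40.2, 0.0417, 50.1 and 22 FPKM, and BMP10 at 5.14, 7.13, 0, 4.67 and 3.83 FPKM, in the livers. BMP10 is known as a factor of the atrial wall, yet no heart was above 0.0915 FPKM.

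**Figure D4:**
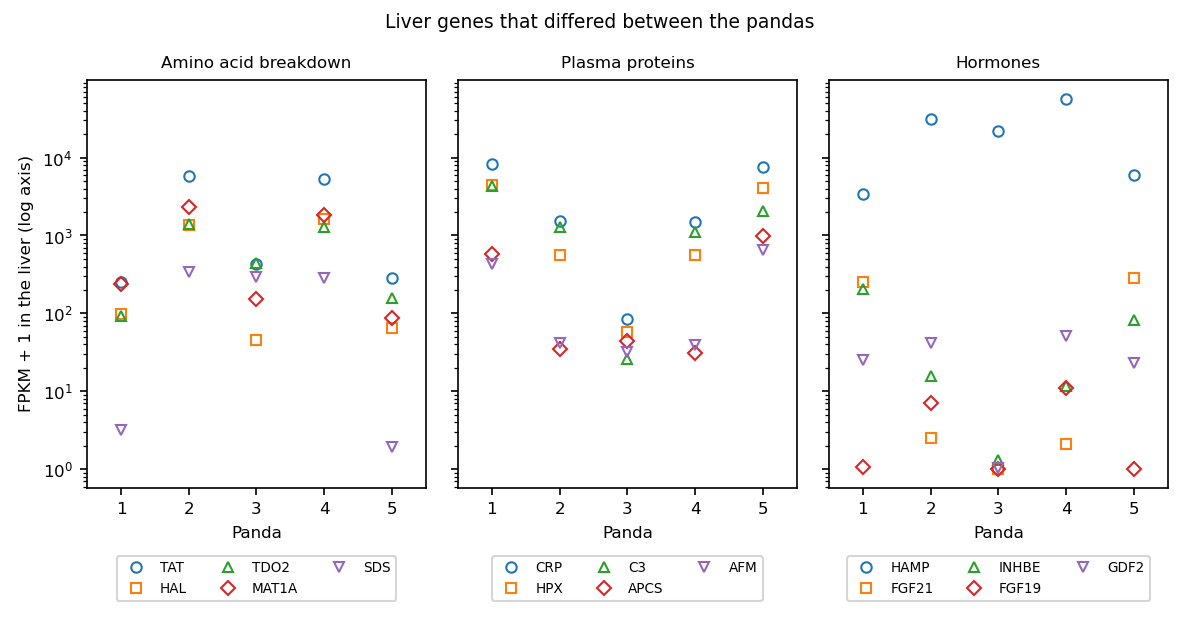
FPKM + 1 (log axis) in the liver of each panda for 5 genes of amino acid breakdown, 5 plasma proteins, and 5 hormones. TAT is at 5719 and 5367 FPKM in pandas 2 and 4 and at 255 to 428 FPKM in the others, CRP and HPX are highest in pandas 1 and 5, and FGF21 is above 2 FPKM in pandas 1 and 5 alone.

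Liver genes were more spread between animals than heart genes, which is given as a description with no test. The SD of log2(FPKM + 1) between the 5 livers had a median of 1.10 over the 1056 genes higher in the liver, and that between the 5 hearts had a median of 0.52 over the 1206 genes higher in the heart. Over all genes tested, the medians were 0.65 in the livers and 0.39 in the hearts. When panda 3 was left out, the livers came to 0.68 for the genes higher in the liver and to 0.41 over all genes, against 0.52 and 0.40 in the hearts. Of the 16 liver list members that overlapped the hearts, 13 no longer did once liver 3 was left out. The exceptions were SERPINA7, SULT1C3, and FGF19, each at 0 in at least 2 livers.

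The difference between heart and liver was also compared between the 3 young pandas and the 2 older ones. No gene passed the threshold (limma on the 5 differences, smallest adjusted p 0.999), and 86 genes (0.602%) had an unadjusted p below 0.05. Chance alone would put a larger share of genes below 0.05, and the reason for the smaller share was not tested. With 3 against 2 animals and age, cause, and year of death coinciding, this does not show that the animals were alike. Among list members, the smallest unadjusted p were those of RBP4 (0.00370), SERPINA3 (0.0105), C3 (0.0183), MYL2 (0.0184), and C1R (0.0191). For RBP4 the log2 difference was -11.54 in the older and -9.50 in the young pandas. For MYL2 it was 14.86 in the older and 12.52 in the young pandas, and livers 3 and 4 held 4.55 and 9.68 FPKM of this gene while livers 1 and 2 held 0 and 0.0821. SERPINA3, an acute phase inhibitor of proteases, was 1.51, 2.14, 0.426, 47.9 and 12.2 FPKM in the hearts, highest in pandas 4 and 5. C3 and C1R were lowest in liver 3.

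Part of the genes that separated heart from liver had their highest mean in the spleen, the lung, or the kidney. Of the 1206 genes higher in the heart, the mean was highest in the heart for 738, while the lung led for 238, the spleen for 132, and the kidney for 98. Of the 1056 higher in the liver, the liver led for 626, the kidney for 245, the spleen for 99, and the lung for 86. Together 898 genes (39.7%, Wilson 95% interval 37.7% to 41.7%) were highest in neither organ. The interval treats genes as independent draws, although all were read in the same 25 libraries. The share over all genes tested is not given here, so 39.7% has no reference beside it. The share of the called genes moved with the scale of the libraries, beyond this interval. After division by TMM factors over all 25 libraries it was 16.6% (376 genes), and with the median of a tissue in place of the mean it was 41.7%.

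**Figure D5:**
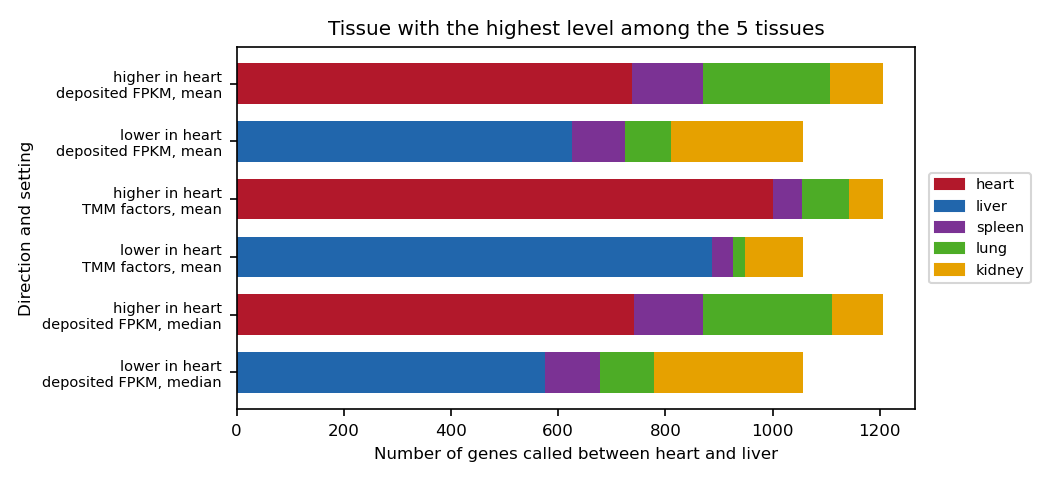
Number of genes called between heart and liver by the tissue with their highest level among the 5 tissues, for each direction under the deposited FPKM with means, TMM factors with means, and deposited FPKM with medians. With the deposited means the heart leads for 738 genes and the liver for 626, and with TMM factors these are 1000 and 886.

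Markers of other cell types were read as a check on what else the samples held. T and NK cell markers were low in both organs, with a summed level of 1.70 to 14.4 FPKM in the hearts and 10.3 to 13.3 FPKM in the livers, and none of the 4 tested (KLRD1, CD3D, CD3E, and CD3G) was called. B and plasma cell markers summed to 5.35 to 14.6 FPKM in the hearts and 23.2 to 43.5 FPKM in the livers, again with none of 4 called. Of 5 macrophage markers tested, 3 were higher in the liver. CD5L, which resident macrophages secrete, stood at 6.27, 93.3, 0.662, 53 and 5.42 FPKM in the livers, highest in pandas 2 and 4, and at no more than 0.367 FPKM in a heart. CLEC10A (-4.39) and MS4A4A (-4.03) were the others, while SPIC (-1.45) and SIGLEC1 (-0.80) did not pass. Of the 5 endothelial markers, CLEC1B at 102, 187, 23.7, 244 and 197 FPKM and GPR182 at 22.5, 30.7, 3.59, 29.8 and 13 FPKM in the livers, both known from sinusoidal endothelium, were higher in the liver (-5.62 and -3.45), and CD93, APLNR, and COLEC12 were not called. CD93 was 14 to 28.7 FPKM in the hearts and 0.219 to 8.34 FPKM in the livers.

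Matrix and smooth muscle genes were for the most part higher in the heart. Lumican (LUM) stood at 105, 60.5, 59.1, 129 and 193 FPKM in the hearts and at 3.53, 3.41, 0.159, 2.59 and 10.4 FPKM in the livers (log2 difference 4.66 ± 0.33 SE), and MFAP5 and DKK3 had differences of 4.71 and 2.90. PCOLCE went the other way, at 314, 125, 6.82, 114 and 131 FPKM in the livers (-2.48 ± 0.44 SE), with liver 3 overlapping the hearts. The light chain MYL9 was 1197, 526, 422, 716 and 903 FPKM in the hearts and 47.4, 14.3, 1.21, 21.8 and 39.7 in the livers, and MYH11 had a difference of 2.47. Keratins 8 and 18, which hepatocytes share with bile duct cells, were higher in the liver (-2.57 and -4.28), as were CDH1 (-5.22) and EPCAM (-3.50). The spectrin SPTB (3.68) and its partner ANK1 (4.63), known from red blood cells and also present in muscle, were higher in the heart. By contrast, the red cell anion exchanger SLC4A1 was at most 0.0213 FPKM in any heart and at 0 in every liver. The fat cell marker PLIN4 (3.79) was also higher in the heart. Lung epithelium markers summed to 7.25 to 18.6 FPKM in the hearts and 4.73 to 20.4 FPKM in the livers, and surfactant protein C (SFTPC) reached 8.12 FPKM in heart 4 and 9.61 FPKM in liver 4. Of the kidney tubule list only AQP1, a water channel that endothelium also carries, passed the filter, at 184, 140.3, 156, 189 and 74.9 FPKM in the hearts (3.91 ± 0.54 SE).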

How the data were processed

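Each of 5 giant pandas gave 1 library from its heart, 1 from its liver, and 1 each from its kidney, lung, and spleen. The authors aligned reads to the panda genome build ailMel1 with HISAT2, assembled transcripts with Cufflinks, counted reads on genes with HTSeq, and deposited FPKM (fragments per kilobase of gene length and library total) for 25376 genes in 25 libraries. Their own comparisons used DESeq on counts, which were not used here. FPKM are not counts, so log2(FPKM + 1) was tested with limma 3.58.1 (R 4.3.3, trend) over 14278 genes whose mean exceeded 1 FPKM in an organ, with the tissue and the panda as terms. Genes were called where the p adjusted after Benjamini and Hochberg was below 0.05 and the difference was beyond 2, the thresholds the authors used. The ± values are standard errors from limma (n = 5 hearts and 5 livers). Limma draws the variance of each gene toward a trend over all genes tested. The standard errors and p-values therefore rest on that trend as well as on the spread between these animals.

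A number marks 1 animal, so hearts and livers were paired. The deviations of the heart and the liver of an animal from their tissue means correlated at 0.396, 0.365, 0.297, 0.408, and 0.389 in pandas 1 to 5. Across animals, heart 4 with liver 2 (0.318) and heart 2 with liver 4 (0.305) were above the 0.297 of panda 3. The other pairs across animals ran from -0.417 to 0.214. The difference between young and older animals was fitted to the 5 heart minus liver differences. Gene symbols came from the study's table of tissue-specific genes, read from page images. Symbols that looked misread were left out, and other misread symbols may remain. Within each list, up to 4 members of highest mean FPKM were described in full, and members not called, called the other way, or overlapping were named or counted, except that a few members are counted but not reported by name here. In each direction the 10 largest differences with 1 sign in 5 pandas and no overlap were named. Members and lists were chosen with earlier results of these data known.

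FPKM steps gave whole reads, within 0.05 of a read, for 100% of the values above 0 in 24207 genes. The step of each gene was chosen so that its values met this tolerance, so the 100% is no separate check. A factor common to all reads of a gene cannot be seen in this way. These reads gave the depths and a limma-voom fit. A floor of 3 reads equals 0.140 to 0.195 FPKM for a gene of 1 kb, and it covers counting error only. On simulated data for heart against liver with 13730 genes, 167 of 200 genes changed 8-fold were called, with 0 wrong signs and 0 calls among the unchanged. The changed genes were drawn from abundant genes only, and the noise was independent between genes. No shift in the scale of a library and no traces of another organ were simulated, so the result does not cover these. Alternatives were another pseudocount, other filters and scalings, voom, all 25 libraries, no block, and leaving out pandas. No sequences or coordinates are given, since no genome of the build was used here.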

Additional observations from a re-analysis of the deposited data

Results flagged for a closer look

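In 251 groups of 5 libraries (the named genes and the list sums, hearts and livers apart), the highest or lowest library was set against Dixon's critical value (95%) for 5 libraries, and 27 passed. Chance alone passes about 1 group in 20, and these groups share libraries, so the passes are not independent.

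Liver 3 accounted for most of them. It stood apart at the low end for CLU (254 FPKM), MASP1 (0.651), KNG1 (486), C3 (24.8), DSC2 (8.35), DSG2 (1.41), PKP2 (3.05), APOE (2128), C1R (142), C1S (38.7), RBP4 (1741), ATP2A2 (1.15), HAND2 (0.432), and UGT1A1 (39.7), where the other 4 livers were at least 8.87 FPKM for each of these genes. Its summed FPKM was also apart for calcium handling (7.19, others 40.0 or more) and for fibroblasts and matrix (8.03, others 138 or more). At the high end, liver 3 had 309 FPKM of ACOT12, against at most 105 in the others, and 43.5 FPKM of B and plasma cell markers, against at most 26.8. These flags were read on the deposited FPKM. The TMM factor of liver 3 was 0.424, the lowest among the hearts and livers, so division by TMM factors raises its levels relative to the other livers. Whether its low-end flags hold after this division was not tested, so they are not shown to be specific to these genes.

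Liver 4 was apart at the high end for MYL3 (3.80 FPKM, others at most 0.890), for the sum of the thick filament list (20.2 FPKM, others at most 7.22), and for that of the natriuretic list (1.06 FPKM, others at most 0.226). Liver 4 also held the most of the 10 cardiomyocyte markers among the livers, at 31.5 FPKM.

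Among the hearts, heart 3 was highest for TNNC1 (26039.5 FPKM, others at most 20068) and ASB12 (5.19 FPKM, others at most 1.17) and lowest for fibroblasts and matrix (185 FPKM, others at least 281). Heart 4 was lowest for ABCC8 (1.15 FPKM, others at least 2.19) and highest for ANG (12.2 FPKM, others at most 5.25). Heart 1 was highest for the sum of the bile duct list, which holds the keratins 7, 8, and 18 (235 FPKM, others at most 85.7).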

How the results depend on the processing

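Of 2262 calls, 2238 were kept without the replicate block that pairs the organs of an animal (1199 genes higher and 1039 lower in the heart), and of the 114 genes checked one by one FGF21 alone changed its call there. A pseudocount of 0.1 gave 2286 higher and 1687 lower, and limma-voom on the recovered reads gave 2309 and 1783. Both give low genes larger differences by construction. Leaving out 1 panda at a time gave 1068 to 1284 higher and 979 to 1233 lower, and panda 3 gave the lowest of the first and the highest of the second. Quantile normalisation gave 1118 and 1127, TMM factors 1018 and 1247, and pandas 3 to 5 alone 1292 and 916. The counts of list members called stayed within 1.5 times under every alternative run on them.

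The share of called genes highest in neither organ was 39.7%, and it was 16.6% with TMM factors of all 25 libraries and 41.7% with medians. MASP1, not called in any setting, was -0.25 and became 0.362 in pandas 3 to 5, and over the fits that leave out 1 panda it ran from -0.756 (without panda 3) to 0.0871 (without panda 1). Over 114 named genes and 14 alternatives, 1533 results kept direction and side of the threshold, 35 newly passed it, 12 no longer did, and 2 changed sign. Those that no longer passed were of CLU, GATA6, MYL4, and FGF21. No gene passed the threshold between young and older pandas in any setting (limma). Under the alternatives 77 to 435 genes had an unadjusted p below 0.05, fewer than chance alone would give. The comparison is limited by its 3 against 2 animals. With 5 animals, traces of one organ's messengers in the other's libraries cannot be told apart from low expression.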

Other observations

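Outside the lists, the named genes of highest mean level in each organ were read after their values were seen, leaving out symbols that are locus numbers. In the heart these were the small heat shock protein HSPB7, which binds filamin, the RNA-binding protein YBX3, the small muscle protein SMPX, the LIM protein FHL1, and MRPL51 of the mitochondrial ribosome. HSPB7 stood at 5321, 5677, 2110.1, 4214 and 2286 FPKM in the hearts and at 0 to 2.07 in the livers (log2 difference 11.11 ± 0.31 SE). SMPX was 2105, 1693, 2310.2, 1563 and 2377 FPKM in the hearts and 0 to 0.613 in the livers. YBX3, FHL1, and MRPL51 were also read in the livers, and their log2 differences were 4.05, 5.82, and 2.79.

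In the liver, ferritin light chain (FTL), which stores iron, stood at 16589, 16870.4, 41562, 20145 and 17297 FPKM, with panda 3 the highest, and at 441, 179, 354, 548 and 473 in the hearts (log2 difference -5.81 ± 0.31 SE). The chemokine CCL16 was 884, 809, 702, 653 and 1192 FPKM and the protein C inhibitor SERPINA5 was 1025, 1428, 55.2, 1217 and 668 FPKM in the livers. TM4SF4 and PTGR1 had log2 differences of -9.04 and -7.53. FTL was high in liver 3, where FGG, CRP, and APOB were the lowest of the 5 livers.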
